A study of Mus musculus with 6 samples.

Results

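Selenoproteins are proteins that contain selenocysteine, an amino acid written into the mRNA as an in-frame UGA codon. The mRNA levels of 10 selenoprotein genes were examined in early LPre-B cells, the first large pre-B stage in mouse bone marrow: *Gpx1*, *Gpx4*, *Txnrd1*, *Msrb1*, *Selenow*, *Selenoh*, *Selenot*, *Selenok*, *Selenom* and *Selenof*. They were found by matching Entrez gene IDs to symbols, and all 10 had a row among the 13426 genes of the deposited table. There were 3 RNA sequencing libraries from control mice (Ctrl; genotype Upf1 Flox/Flox with Mb1 +/+) and 3 from conditional knockout mice (Upf1-cKO; Upf1 Flox/Flox with Mb1 Cre/+). Both groups therefore carried loxP-flanked *Upf1* alleles on a C57BL/6 background, and only the Upf1-cKO group carried Cre recombinase, which is expressed from the *Cd79a* (Mb1) locus in the B lineage. Adult mice of both sexes, matched for age, were used, and cells were sorted as negative for other lineages, surface IgM and CD2, positive for B220 and CD43 among other markers, and large by forward scatter. Loss of *Upf1*, the presence of Cre and the loss of an intact copy of *Cd79a* cannot be told apart in this design. The study calls its samples biological replicates, and the labels do not say how many mice a library holds.

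UGA normally ends translation. In a selenoprotein mRNA it is read as selenocysteine with the help of a stem-loop in the 3' untranslated region, the SECIS element, and of a dedicated tRNA and elongation factor. UPF1 is a helicase at the centre of nonsense-mediated mRNA decay (NMD), the pathway that degrades mRNAs whose translation stops well upstream of the last exon-exon junction, and several selenoprotein mRNAs are known as NMD targets when selenium is scarce. The comparison asks how the level of each selenoprotein mRNA differs with conditional deletion of *Upf1*. The cells were sorted at the stage at which V segments of the immunoglobulin heavy chain locus are normally joined. The paper reports that UPF1 protein was already lost at the earlier pro-B stage in the knockout mice. By PCR it found no V segment joining in their early LPre-B cells, while the preceding D to J joining was still detected. The cells of the groups thus differed in this step, and its part in the values below was not tested.

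The codon that defines these genes is given here within its own mRNA. Each sequence was read 5' to 3' from the GENCODE M21 transcript named beside it (genome build GRCm38), with 12 bases on either side of the codon. The selenocysteine TGA is in capitals.
Gpx1 (Gpx1-201): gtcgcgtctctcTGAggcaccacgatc
Gpx4 (Gpx4-202): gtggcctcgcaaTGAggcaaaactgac
Txnrd1 (Txnrd1-201): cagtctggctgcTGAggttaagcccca
Msrb1 (Msrb1-201): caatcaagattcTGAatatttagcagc
Selenow (Selenow-201): tattgtggagctTGAggctataagccc
Selenoh (Selenoh-201): cattgtacgagcTGAcgcgtgtacggc
Selenot (Selenot-201): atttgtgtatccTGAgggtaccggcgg
Selenok (Selenok-201): atggctggtggaTGAggaaggtaaatg
Selenom (Selenom-201): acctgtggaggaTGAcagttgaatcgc
Selenof (Selenof-201): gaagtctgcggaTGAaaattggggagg

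All 10 TGA codons were in frame with the annotated start codon. The base after TGA, which is known to affect how well a stop codon is read, was G in 6 of the 10 genes, A in 2, C in 2 and T in 0. The codon lay early in the reading frame of *Selenow* (codon 13 of 88) and at its very end in *Txnrd1* (codon 498 of 499) and *Selenok* (codon 92 of 94). In the genome the *Gpx1* codon was at chr9:108339451-108339453 in exon 1 of 2, the *Selenoh* codon at chr2:84670381-84670383 in exon 2 of 3, and the *Txnrd1* codon at chr10:82896037-82896039 in exon 14 of 14.

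Recovered reads totalled between 9732498 and 11006834 per library. *Upf1*, the targeted gene, had normalised reads (reads plus 0.5, per 1e6 of effective library size) of 260.0, 203 and 259 in Ctrl libraries 1, 2 and 3 and of 308, 283 and 299.7 in those labelled Upf1-cKO. The log2 difference of 0.31 was upward (SE 0.0892, adjusted p 0.00696). It was 0.19 without Ctrl library 2 (adjusted p 0.0358) and 0.51 when scaled to total reads, and the call was lost with median centring (0.20, adjusted p 0.0645) and without trend and robust estimation (adjusted p 0.0685). The gene-level value thus did not fall in the libraries labelled as knockouts, and they are called cKO-labelled libraries from here on. Reads were summed along the gene, and the removed exons are not separate in the table. All directions below are cKO-labelled relative to Ctrl. *Cd79a*, the locus that carries Cre, fell from 221 ± 11.4 to 73.3 ± 1.85 normalised reads (SD, n = 3). The 10 B lineage markers used all had rows and summed to 1923 to 2118 normalised reads in Ctrl and 1916 to 1998 in cKO-labelled libraries, although its members moved both ways. *Rag1* (log2 fold change 1.55), *Vpreb2* (1.26), *Rag2* (1.16) and *Vpreb1* (0.40) were higher, and *Cd79a* (-1.58) and *Ptprc* (-0.84) lower.

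Markers of other bone marrow cells also differed. The 9 neutrophil markers summed to 14.2, 18.7 and 129 normalised reads in Ctrl, with library 1 standing apart, and to between 342 and 479 in cKO-labelled libraries. Of these, *S100a8*, *S100a9*, *Ltf*, *Elane* and *Retnlg* passed the test as higher, and 4 did not pass. This count was 8 of 9 without Ctrl library 1, and 1 or 2 of 9 without any other single library. With all 6 libraries it was 8 of 9 with edgeR, with voom and without trend and robust estimation. It was 7 when scaled to total reads, 5 with DESeq2 and 4 with a pseudocount of 0.1. The 6 erythroid markers with a row summed to 21.4 to 26.1 in Ctrl and 14.2 to 20.3 in cKO-labelled libraries, with *Slc4a1* lower and the globin genes without a row. The 5 monocyte and macrophage markers with a row summed to 60.8 to 94.7 and 81.5 to 108, with *Lyz2* higher and *Itgam* lower. The 2 T and NK cell markers with a row summed to 1.17 to 1.59 and 3.79 to 5.27, with *Klrb1c* higher and the CD3 genes without a row. The part of other cell types in the values below was not tested, and marker genes named here were chosen after their values were seen. Without Ctrl library 1 the 10 selenoprotein genes gave 7 lower and 2 higher calls, as with all 6 libraries. Over all 13426 genes, 3350 were then lower and 3643 higher. Leaving out this library widens the neutrophil difference between the groups, so the unchanged calls cannot show the part of other cell types. In such bulk samples, fewer cells of a type and less RNA per cell cannot be told apart.

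Most of the 10 selenoprotein mRNAs fell. Called at adjusted p below 0.05 (limma on log2(value + 1), adjusted over all genes), 7 of the 10 were lower, against 25.0% of all genes tested. The 2 that were higher, *Txnrd1* and *Selenom*, stand against 27.7% of all genes, and *Selenow* was not called. The 7 lower genes were *Gpx1*, *Gpx4*, *Msrb1*, *Selenoh*, *Selenot*, *Selenok* and *Selenof*. The median log2 fold change of the 10 genes was -0.42, beside 0.01 for all genes. The ranges of the groups did not overlap for the same 9 genes: 7 lay wholly lower, against 28.0% of all genes, and 2 wholly higher, against 30.9%. With genes limited to a mean log2 value of at least 3, *Selenom* dropped out. Of the 9 selenoprotein genes left, 7 were lower and 1 higher, beside 2879 lower and 2642 higher of 9202 genes.

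**Figure D1:**
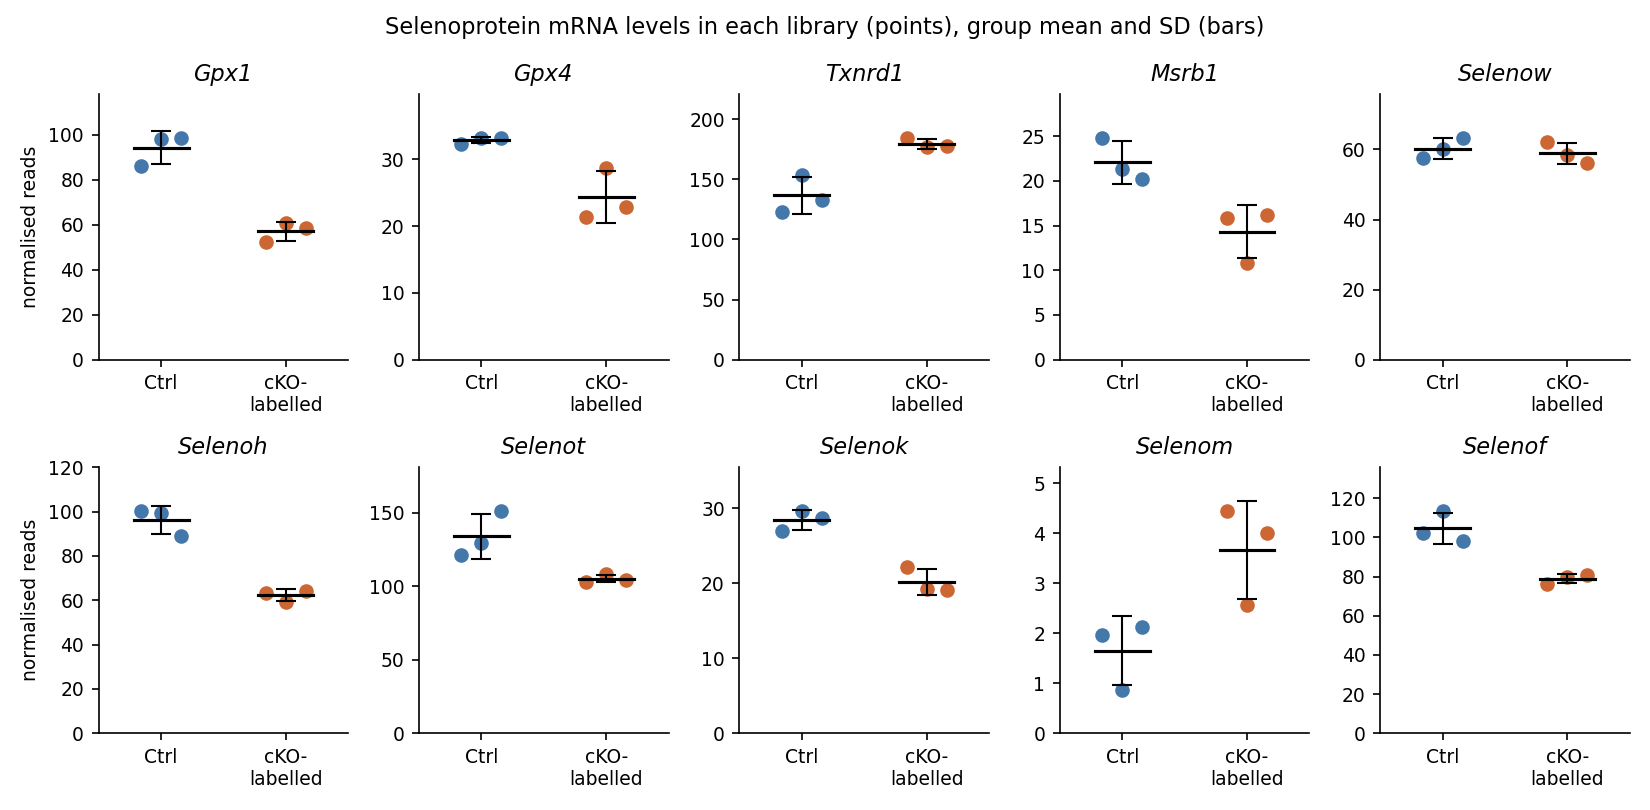
Normalised reads of each selenoprotein gene on a linear axis from 0, with a point for each of the 3 Ctrl and 3 cKO-labelled libraries, a line at the group mean and bars for the SD. The groups are separate in every panel except *Selenow*, where the cKO-labelled range of 56.2 to 62.0 overlaps the Ctrl range of 57.4 to 63.3.

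Both glutathione peroxidases fell. GPX1 reduces hydrogen peroxide in the cytosol with glutathione as the electron donor. *Gpx1* (Entrez 14775, chr9:108339080-108340342, GRCm38) had 86.0, 98.4 and 98.7 normalised reads in Ctrl libraries 1, 2 and 3 and 52.3, 60.6 and 58.4 in the cKO-labelled libraries. Every cKO-labelled value was below every Ctrl value, and the mean dropped by 39.5%. The log2 difference, -0.71 (SE 0.0913, adjusted p 3.00e-06), kept its call in all 17 alternative settings.

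GPX4 reduces lipid hydroperoxides within membranes and is the enzyme that holds back ferroptosis. *Gpx4* (Entrez 625249, chr10:80047166-80056439) had 32.3, 33.2 and 33.2 normalised reads in Ctrl and 21.4, 28.7 and 22.8 in cKO-labelled libraries. The Ctrl values were close together, and cKO-labelled library 2 lay nearest to them. The log2 fold change was -0.43 (SE 0.119, adjusted p 0.0051). The call was lost when libraries were scaled to their total reads (-0.24, adjusted p 0.123) and when the trend with transcript length and GC content was removed (-0.26, adjusted p 0.0587).

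*Txnrd1* went the other way. It encodes the cytosolic thioredoxin reductase, which passes electrons from NADPH to thioredoxin through a selenocysteine next to its C-terminus. *Txnrd1* (Entrez 50493, chr10:82833951-82897724) had 123, 154 and 133 normalised reads in Ctrl and 185, 177 and 177 in cKO-labelled libraries. The 3 cKO-labelled values were closer to each other than the Ctrl values were, and all lay above them. The log2 fold change was 0.40 (SE 0.0847, adjusted p 0.000652), and the call held in all 17 alternative settings, at 0.60 when scaled to total reads. The locus overlaps *Eid3* on the same strand and 2 further annotated genes on the other. Reads were aligned ignoring strand, and the study's methods give no strand setting for counting, so its value is uncertain to that extent.

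*Msrb1* encodes a methionine sulfoxide reductase that repairs the R form of oxidised methionine in the cytosol and nucleus. *Msrb1* (Entrez 27361, chr17:24736593-24742778) had 24.8, 21.3 and 20.2 normalised reads in Ctrl and 15.9, 10.9 and 16.1 in cKO-labelled libraries. No value of either group reached the range of the other. The log2 fold change was -0.61 (SE 0.152, adjusted p 0.00241), on 120 to 233 reads per library.

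*Selenow*, *Selenoh* and *Selenot* encode small proteins with a thioredoxin-like fold. The mRNAs of *Selenoh* and *Selenot* were lower, and that of *Selenow* was not called. SELENOW is a cytosolic protein whose mRNA is known to follow selenium supply closely. *Selenow* (Entrez 20364, chr7:15917208-15922371) had 57.4, 60.1 and 63.3 normalised reads in Ctrl and 62.0, 58.4 and 56.2 in cKO-labelled libraries. The ranges of the groups overlapped, and the log2 fold change was -0.03 (95% interval -0.22 to 0.15, adjusted p 0.774). With 540 to 666 reads per library, its interval was no wider than those of several called genes.

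SELENOH is a nuclear protein that binds DNA. *Selenoh* (Entrez 72657, chr2:84669215-84670708) had 100.1, 99.5 and 88.9 normalised reads in Ctrl and 63.5, 59.1 and 64.1 in cKO-labelled libraries. The gap between the groups was wider than the spread within either. Its log2 difference, -0.62 (SE 0.0858, adjusted p 7.92e-06), kept its call in all 17 alternative settings, at -0.37 once the length and GC trend was removed. *Selenoh* overlaps another protein-coding model, *Gm28635*, on the same strand, and reads shared by the 2 cannot be assigned.

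SELENOT resides in the membrane of the endoplasmic reticulum (ER). *Selenot* (Entrez 69227, chr3:58576636-58593544) had 121, 129.5 and 151 normalised reads in Ctrl and 103, 108 and 104 in cKO-labelled libraries. Its fall was the smallest of the 7 (log2 fold change -0.34, SE 0.0869, adjusted p 0.00299). Scaled to total reads it was -0.14 (adjusted p 0.255).

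The other ER selenoproteins did not move together. SELENOK is an ER membrane protein that acts with the palmitoyltransferase DHHC6 and in ER-associated degradation, and it is known for its part in calcium flux of immune cells. *Selenok* (Entrez 80795, chr14:29968380-29975074) had 26.9, 29.6 and 28.6 normalised reads in Ctrl and 22.1, 19.2 and 19.1 in cKO-labelled libraries. All 3 cKO-labelled values were below the lowest Ctrl value, and the log2 difference was -0.48 (SE 0.116, adjusted p 0.00194). Scaled to total reads it was -0.28 (adjusted p 0.0494). The annotation holds 6 pseudogenes named after *Selenok*, 1 after *Selenot* and 1 after *Gpx4*, and how reads that match both gene and copy were treated is not given in the sources used here.

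SELENOF binds UGGT, the glucosyltransferase that checks the folding of glycoproteins in the ER. *Selenof* (Entrez 93684, chr3:144570427-144597677) had 102, 113 and 98.3 normalised reads in Ctrl and 76.3, 79.7 and 80.8 in cKO-labelled libraries. The highest cKO-labelled value was below the lowest Ctrl value, and the log2 fold change was -0.40 (SE 0.0836, adjusted p 0.000566). Scaled to total reads it was -0.20 (adjusted p 0.0605). A small nucleolar RNA gene, *Gm24406*, lies on the opposite strand within the locus.

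SELENOM is an ER protein related to SELENOF. *Selenom* (Entrez 114679, chr11:3514684-3517351) was scarce, with 1.97, 0.859 and 2.13 normalised reads in Ctrl and 4.44, 2.57 and 4.0 in cKO-labelled libraries. These values rest on 18, 8 and 21 reads in Ctrl and on 45, 28 and 47 reads in cKO-labelled libraries. The ranges did not overlap, and the log2 fold change was 0.83 (SE 0.243, adjusted p 0.00774), which the added pseudocount understates for a gene this low. The call depended on Ctrl library 2, without which it was 0.59 (adjusted p 0.0523).

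Scaling mattered for the number of calls. When libraries were scaled to total reads, the median of all genes was 0.19 in place of 0.01, and 38.5% of genes were higher and 14.4% lower. Of the 10 selenoprotein genes, 4 (*Gpx1*, *Msrb1*, *Selenoh* and *Selenok*) then remained lower and 2 higher. The largest row of each library held 22.2%, 23.8% and 16.4% of recovered reads in Ctrl libraries 1, 2 and 3. It held 16.5%, 13.8% and 13.9% in the cKO-labelled libraries. The part of this in the scaling to total reads was not tested. Centring each library on its median gave 22.3% of genes higher and 32.4% lower, and the selenoprotein genes again gave 7 lower and 2 higher calls. The 9 called genes kept their direction in every scaling that was run. The direction of *Selenow* did not: its log2 fold change was 0.17 when scaled to total reads (adjusted p 0.145).

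**Figure D2:**
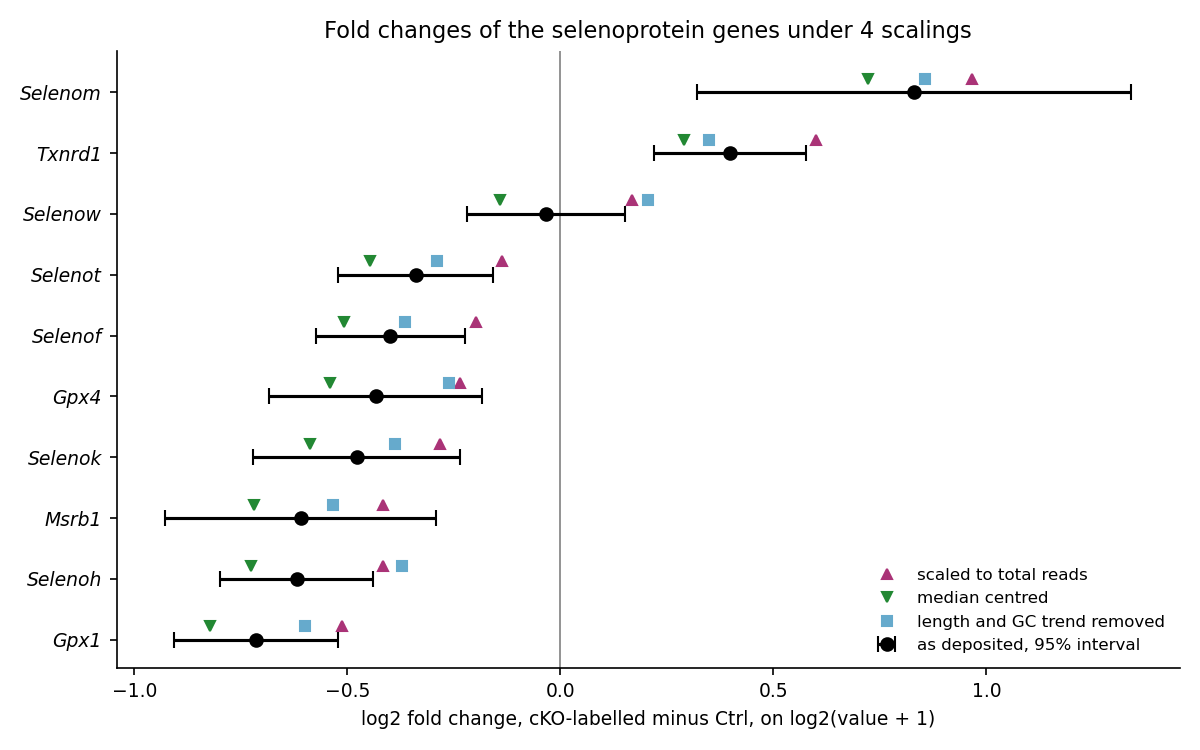
Log2 fold change of each selenoprotein gene (cKO-labelled minus Ctrl, on log2(value + 1)) with the deposited scaling and its 95% interval (black), scaled to total reads, median centred, and after the trend with length and GC content was removed. Values run from -0.71 for *Gpx1* to 0.83 for *Selenom* in the deposited scaling, and only *Selenow* has symbols on both sides of 0.

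The 10 genes are short, and length was measured beside the result. The longest transcript had a median of 1344.5 bases (736 to 3622), shorter than the median of 3372 bases over the 12155 genes with a known length in 9 of 10 cases. Median GC content was 53.3%, beside 49.7%. After a smooth trend with length and GC content was removed from each library, 6 of the 10 were lower and 3 higher, where 26.8% and 29.4% of all genes were. *Gpx4* was no longer called, and *Selenow* was called as higher at a log2 fold change of 0.20 (adjusted p 0.0486).

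Levels of different genes were compared as normalised reads per kilobase of annotated exon. In Ctrl, *Selenoh* (85.0 ± 5.56) and *Selenow* (81.9 ± 4.01; SD, n = 3) were at the top with overlapping ranges by this length. *Gpx1* followed at 65.5 ± 5.01 and *Selenot* at 38.9 ± 4.46, each apart from its neighbours. *Txnrd1* (19.3 ± 2.21), *Gpx4* (19.1 ± 0.287), *Selenof* (18.0 ± 1.34) and *Msrb1* (17.6 ± 1.91) formed a run in which neighbouring ranges overlapped. *Selenok* stood at 15.0 ± 0.705, and *Selenom* was lowest at 1.12 ± 0.468.

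In the cKO-labelled libraries, by the same length, *Selenow* led with 80.0 ± 4.0 normalised reads per kilobase, above *Selenoh* at 55.02 ± 2.41 and *Gpx1* at 39.6 ± 3.01, with no overlap between these neighbours. *Txnrd1*, at 25.4 ± 0.595, now lay apart from *Gpx4* at 14.1 ± 2.25. *Gpx4* overlapped with *Selenof* (13.6 ± 0.409), and *Msrb1* (11.4 ± 2.36) with *Selenok* (10.6 ± 0.908), while *Selenom* was lowest again at 2.48 ± 0.661. The order and its gaps depend on the length used. With the length of the reference transcript, *Selenoh* (123 ± 8.03) led alone in Ctrl, *Gpx1* (88.0 ± 6.74) ranked above *Selenow* (81.9 ± 4.01), *Selenof* had 69.1 normalised reads per kilobase, and *Selenot* (42.4 ± 4.86) was not apart from *Txnrd1* (41.1 ± 4.71). With that length *Selenow* (80.0 ± 4.0) no longer stood apart from *Selenoh* (79.5 ± 3.483) in the cKO-labelled libraries, nor *Gpx1* (53.3 ± 4.05) from *Txnrd1* (54.0 ± 1.27).

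The position of the codon relative to the last exon-exon junction was taken from the annotation alone. A stop codon more than 50 bases upstream of that junction is, by the usual rule, in a position that can lead to NMD. In 7 of the 10 reference transcripts the selenocysteine codon lay beyond this distance: *Selenot* (470 bases), *Gpx4* (342), *Selenow* (243), *Selenoh* (136), *Selenom* (135), *Gpx1* (105) and *Selenof* (78). It lay 34 bases from the junction in *Msrb1* and 5 in *Selenok*, and in *Txnrd1* it was in the last exon, 63 bases past the junction. A boundary of 55 bases gave the same 7 genes. A second transcript changes the class of 2 genes, with 66 bases in Msrb1-202 and 28 bases in Selenof-202.

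**Figure D3:**
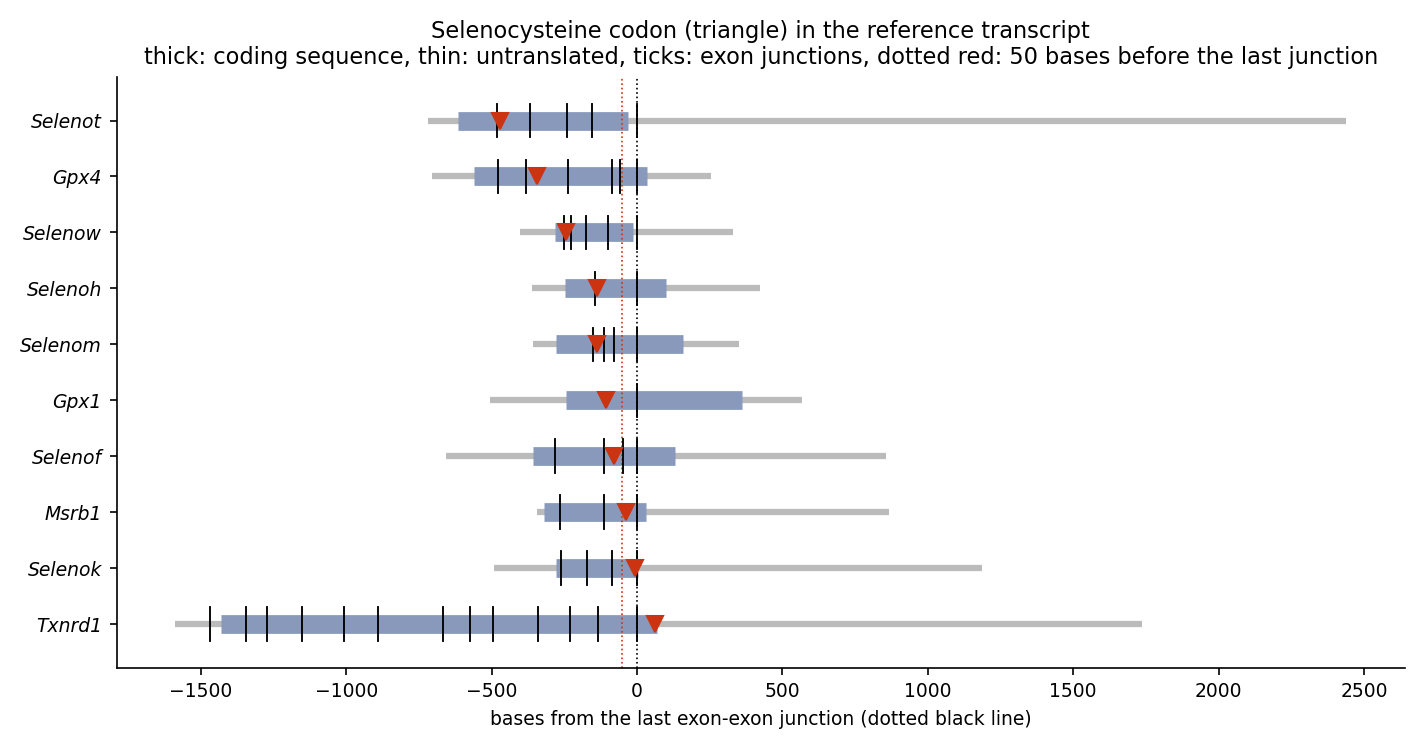
Reference transcripts aligned at the last exon-exon junction (0 on the axis, in bases), with the coding sequence thick, untranslated parts thin, junctions as ticks and the selenocysteine codon as a triangle. The triangle lies left of the dotted red line at 50 bases before the junction in the upper 7 transcripts, and right of it in *Msrb1*, *Selenok* and *Txnrd1*.

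Both classes held mRNAs that fell. Of the 7 genes with the codon over 50 bases upstream, 5 were lower (*Gpx1*, *Gpx4*, *Selenoh*, *Selenot* and *Selenof*), *Selenom* was higher and *Selenow* was not called, with a median log2 fold change of -0.40. Of the other 3, *Msrb1* and *Selenok* were lower and *Txnrd1* higher, with a median of -0.48. Over all genes, 25.0% were lower and 27.7% higher. With scaling to total reads, 2 of the 7 were lower, 1 higher and 4 not called, and of the other 3, 2 were lower and 1 higher. In that scaling 14.4% of all genes were lower and 38.5% higher. With 3 genes in a class, the difference between classes was not tested.

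**Figure D4:**
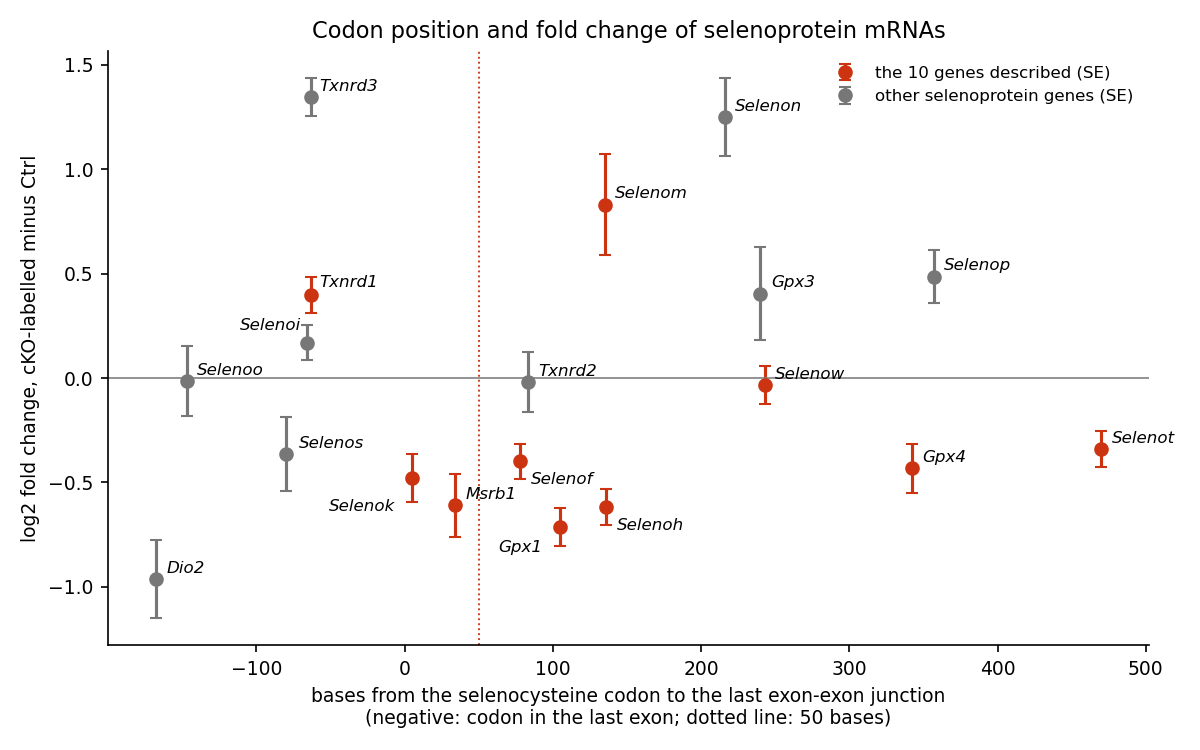
Log2 fold change (cKO-labelled minus Ctrl, bars for the SE) against the distance from the selenocysteine codon to the last exon-exon junction, for the 10 genes described (red) and the other selenoprotein genes that have a row and a junction (grey). Falling and rising genes stand on both sides of the dotted line at 50 bases, and *Gpx1* and *Selenom* lie on the same side at 105 and 135 bases.

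Of 14 further selenoprotein genes, 10 had a row. Of these, 3 were higher, 2 were lower and 5 were not called, with a median log2 fold change of 0.08, counts near the 27.7% of all genes that were higher and the 25.0% that were lower. *Gpx2*, *Dio1*, *Dio3* and *Selenov* had no row. Over all 24 selenoprotein genes listed, 20 had a row, of which 5 were higher, 9 lower and 6 not called. When libraries were scaled to total reads, 6 were higher, 6 lower and 8 not called, beside 38.5% of all genes higher and 14.4% lower.

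The higher genes included a close relative of *Txnrd1*. *Txnrd3*, which encodes the thioredoxin glutathione reductase best known from testis, had 48.8, 60.1 and 55.2 normalised reads in Ctrl and 130.2, 142 and 148 in cKO-labelled libraries (log2 fold change 1.35, SE 0.0915, adjusted p 1.06e-09). *Selenon*, an ER protein that regulates calcium uptake, had 2.92, 3.69 and 2.73 in Ctrl and 9.90, 7.71 and 8.73 in cKO-labelled libraries (1.25, SE 0.188, adjusted p 1.91e-05). *Selenop*, the secreted selenium carrier, had 14.6, 16.4 and 15.9 in Ctrl and 21.2, 24.9 and 20.9 in cKO-labelled libraries (0.49, SE 0.127, adjusted p 0.0035). For none of these 3 did the groups overlap.

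*Dio2*, the deiodinase that activates thyroid hormone, was lower, with 9.72, 12.2 and 9.28 normalised reads in Ctrl and 4.83, 6.09 and 3.75 in cKO-labelled libraries (log2 fold change -0.96, adjusted p 0.000301). *Sephs2*, itself a selenoprotein and the enzyme that makes the selenium donor selenophosphate, had 94.3, 119 and 85.1 in Ctrl and 66.5, 73.8 and 60.1 in cKO-labelled libraries (-0.56, adjusted p 0.000421). The 5 genes that were not called had log2 fold changes of 0.40 for *Gpx3*, 0.17 for *Selenoi*, -0.01 for *Selenoo*, -0.02 for *Txnrd2* and -0.36 for *Selenos*. *Txnrd2*, the mitochondrial thioredoxin reductase, overlapped between groups, at 14.7 ± 1.81 normalised reads in Ctrl and 14.5 ± 1.5 (SD, n = 3) in the other group.

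Genes that make and insert selenocysteine included several that rose. All 15 genes of this list had a row, of which 8 were higher and 2 lower, beside 27.7% and 25.0% of all genes, with a median log2 fold change of 0.35. The list includes the SELENOP receptor *Lrp8*, which was higher. It leaves out *Sephs2*, which was lower (-0.56) and is counted above as a selenoprotein. Scaled to total reads, 8 were higher and 1 lower, beside 38.5% and 14.4% of all genes. The 6 called genes with the largest changes all rose. *Trit1*, the isopentenyltransferase that modifies the anticodon loop of the selenocysteine tRNA, had 23.1, 25.7 and 23.6 normalised reads in Ctrl and 106, 101 and 105 in cKO-labelled libraries, and its log2 difference was 2.06 (SE 0.0910, adjusted p 2.87e-12). *Sars*, the seryl-tRNA synthetase that charges this tRNA with serine, went from 117 ± 12.9 to 232 ± 3.61 (SD, n = 3), a log2 fold change of 0.98 (adjusted p 1.73e-08). *Pstk*, the kinase of the next step, went from 4.29 ± 1.15 to 8.29 ± 0.711 (0.83, adjusted p 0.00129).

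The other 3 of the 6 were *Lrp8*, a receptor for SELENOP, at a log2 fold change of 0.91 (adjusted p 1.69e-05), *Trnau1ap*, which binds the selenocysteine tRNA, at 0.73 (adjusted p 8.56e-05), and *Alkbh8*, which methylates its wobble base, at 0.53 (adjusted p 0.000181). Chosen after their values were seen, *Secisbp2*, the protein that binds the SECIS element, had 0.52 (adjusted p 0.000335) and the elongation factor gene *Eefsec* 0.02 (95% interval -0.18 to 0.22, adjusted p 0.874). The 2 lower genes, also named after their values were seen, were *Eif4a3* (-0.42, adjusted p 0.00023), whose product binds SECIS elements and is a core part of the exon junction complex, and *Sephs1* (-0.27, adjusted p 0.00568), a relative of *Sephs2* that lacks selenocysteine.

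Homologues that carry cysteine in place of selenocysteine gave no call. Of 7 listed, 4 had a row, and 0 were called by limma, edgeR or DESeq2, or had an unadjusted p below 0.05, beside 27.7% of all genes higher and 25.0% lower. Their log2 fold changes were 0.07 for *Gpx7*, 0.31 for *Msrb2*, 0.15 for *Msrb3* and -0.05 for *Mien1*. *Msrb3* rested on 2 to 12 reads per library and *Gpx7* on 4 to 11, so small differences were not detectable at this depth. *Msrb2*, the mitochondrial counterpart of *Msrb1*, went from 5.54 ± 1.13 in Ctrl to 7.11 ± 1.17 normalised reads (SD, n = 3), and the ranges overlapped. With the same scaling to total reads, it alone of the 4 was called as higher.

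The enzymes that work with selenoproteins in thioredoxin and glutathione metabolism moved in both directions. Of 20 listed genes, 19 had a row, of which 5 were higher, a share near the 27.7% over all genes, and 9 lower, beside 25.0% of all genes, with a median log2 fold change of -0.27. Scaled to total reads, 6 were higher and 5 lower, where 38.5% and 14.4% of all genes were. *Gclc*, the catalytic subunit of the first and rate-limiting enzyme of glutathione synthesis, had 222, 192 and 236 normalised reads in Ctrl and 74.2, 81.4 and 87.9 in cKO-labelled libraries, and its log2 difference was -1.40 (SE 0.0903, adjusted p 5.24e-10). *Gsr*, which regenerates reduced glutathione, went from 14.7 ± 0.0570 to 35.5 ± 3.70 (1.22, adjusted p 1.02e-07). *Gss*, which completes glutathione synthesis, rose as well (0.61, adjusted p 0.00123).

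Among thioredoxin genes, *Txn2*, the mitochondrial thioredoxin, fell from 61.5 ± 3.66 to 39.7 ± 2.91 normalised reads (SD, n = 3), a log2 fold change of -0.62 (adjusted p 2.50e-05). *Prdx4*, the peroxiredoxin of the ER, fell to the same extent (-0.62, adjusted p 4.51e-05). *Txnip*, which binds thioredoxin and inhibits it, was higher (0.53, adjusted p 5.41e-05). The other 2 higher genes, *Glrx2* (0.35, adjusted p 0.0292) and *Cat* (0.23, adjusted p 0.027), and *Txn1*, the cytosolic substrate of TXNRD1 (-0.38, adjusted p 0.000294), were named after their values were seen.

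**Figure D5:**
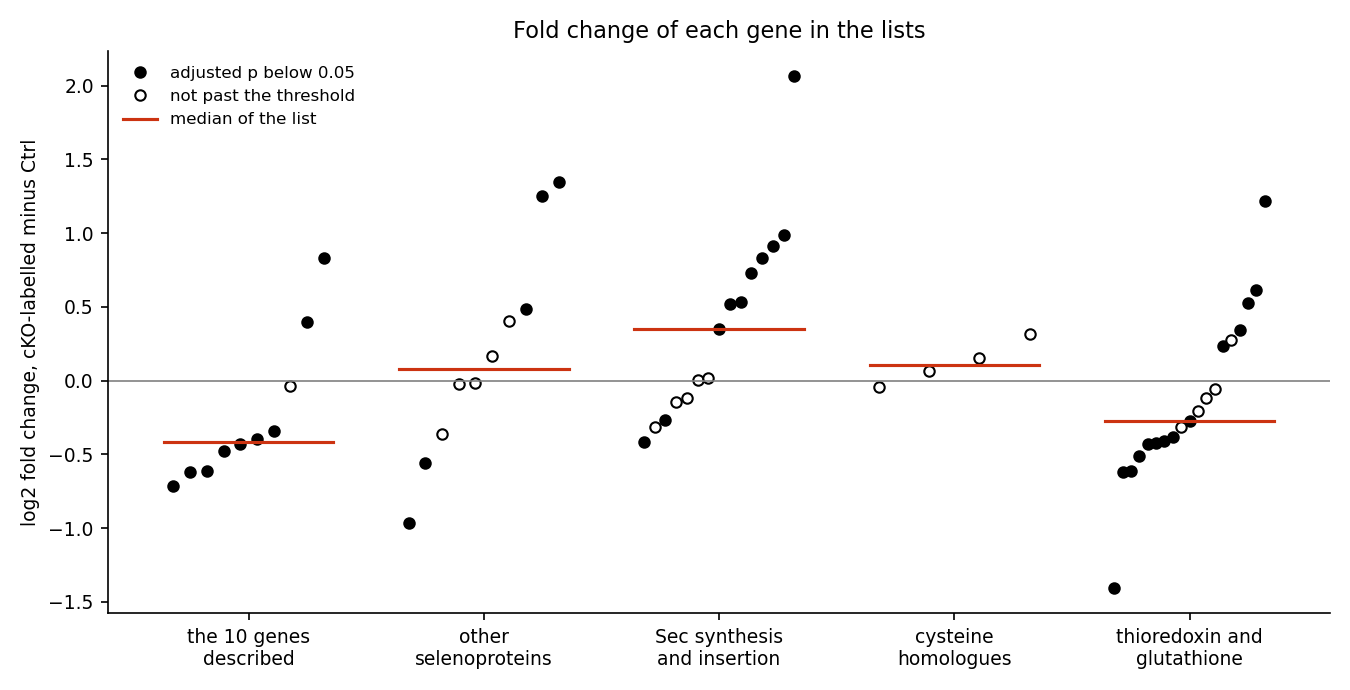
Log2 fold change of every gene with a row in 5 lists (filled, adjusted p below 0.05; open, not past it), with a line at the median of each list. The medians are -0.42 for the 10 selenoprotein genes described, 0.08 for the other selenoprotein genes, 0.35 for selenocysteine synthesis and insertion, 0.11 for the cysteine homologues and -0.27 for thioredoxin and glutathione genes.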

How the data were processed

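RNA was sequenced from 3 Ctrl and 3 Upf1-cKO early LPre-B libraries, grouped by their labels. Per the study's methods and the submitters' processing notes, ribosomal RNA was depleted, a stranded kit was used, single-end reads were trimmed with cutadapt 4.0, aligned to mm10 by HISAT2, ignoring strand, and counted by featureCounts 2.0.1. The authors deposited a linear signal per Entrez gene. No unit was stated, and the values showed it to be (reads + 0.5) per 1e6 of effective library size. Whole reads were recovered for 100% of values (tolerance 0.1). All 13426 genes exceeded 0.5 in at least 3 libraries, so lower genes had been removed. Symbols came from RefSeq (GRCm38.p6, 13008 IDs named), and transcripts, lengths and codons from GENCODE M21.

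Differential expression was tested on log2(value + 1) by limma 3.58.1 in R 4.3.3, with a group term alone, eBayes with the trend and robust options, and p-values adjusted over all genes by Benjamini-Hochberg. Genes were called at an adjusted p below 0.05, and adjusted p-values and moderated SEs are limma's. This scale understates changes of low genes. Reads are not independent molecules. No library repeated another of its group (chi-square over degrees of freedom 4.39 to 22.0). Alternatives were a replicate block, other scalings, pseudocounts and filters, edgeR 4.0.16, DESeq2 1.42.0 and voom on recovered reads, removal of a length and GC trend (mgcv 1.9.3), and leaving out each library. The fits were tested on simulated data.

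The members and lists were chosen with earlier results of these data known. The genes named by rule are the 10 members, *Upf1*, every further selenoprotein and cysteine homologue with a row, and at most 6 called genes, by size of change, from each of the other 2 lists. Further genes of those 2 lists, and the called cell type markers, were named after their values were seen. Reference transcripts were chosen by APPRIS principal status, transcript support and length. A B lineage marker is not reported here and was left out of the summed marker level.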

Additional observations from a re-analysis of the deposited data

How the results depend on the processing

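The calls of *Gpx1*, *Msrb1*, *Selenoh*, *Selenok* and *Txnrd1* were the same in all 17 alternative settings, and the cause of each change below was not tested unless the setting itself gives it. Scaling to total reads left 4 of the 10 selenoprotein genes lower, 1 selenocysteine synthesis and insertion gene lower and 5 thioredoxin and glutathione genes lower. With quantile normalization 1 synthesis gene was lower. With median centring, and with DESeq2, 3 thioredoxin and glutathione genes were higher in place of 5. Requiring a mean log2 value of at least 3 removed *Selenom* from the test and left 1 selenoprotein gene higher. Removing the length and GC trend turned *Selenow* to 0.20.

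Leaving out 1 library at a time gave 1 to 2 selenoprotein genes higher (1 without Ctrl library 2) and 7 lower each time, 2 to 4 synthesis genes lower (4 without Ctrl library 1), and 3 to 5 thioredoxin and glutathione genes higher (3 without Upf1-cKO library 2). The log2 fold change then ranged from -0.78 to -0.65 for *Gpx1*, from -0.55 to -0.35 for *Gpx4* and from 0.59 to 1.01 for *Selenom*.

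With the replicate number as a block, 7 selenoprotein genes were lower and 2 higher, and 6 in place of 5 thioredoxin and glutathione genes were higher. The labels also give libraries with the same replicate number consecutive serial numbers, without saying what these mark. Deviations of same-numbered libraries correlated at 0.126, -0.0632 and -0.0792 over 9202 genes, so the check did not show that they were paired.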
